A study of Mus musculus with 3 samples.

Results

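*Spp1*, *Apoe*, *Trem2*, *Gpnmb*, *Lpl*, *Cst7*, *Itgax*, *Clec7a*, *Cd9* and *Cd63* are known as genes of phagocytic microglia in the developing central nervous system. These 10 genes, of 33696 in the gene table, were taken by symbol, and all 10 had UMIs (unique molecular identifiers, each marking 1 captured transcript) in the microglia of each library. They were read in microglia and macrophages of mouse retinas at postnatal day 6 from 3 droplet libraries. The mice of one library were wild type (WT), those of another *Tspan12* knockouts (KO), and those of the last *Ctnnb1* conditional knockouts (cKO), which carried floxed *Ctnnb1* and *Pdgfb*-iCreER, a tamoxifen-inducible Cre that acts in endothelial cells. The strain was C57BL/6 throughout, each library pooled the retinas of several mice, the WT mice came from other litters than the knockout mice, and tamoxifen is described for the mice with Cre. Retinal cells were enriched with beads against CD31, carried by endothelial cells, and CD11b, carried by microglia, macrophages and neutrophils, so the enrichment set part of the share of these cells. With 1 library per genotype there was no replicate check. Genotype and library cannot be told apart, no test was run, and every interval given is at 95% and covers counting error only.

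Microglia with this set of genes appear in the first days after birth, when the retina and the white matter hold many dying cells and growing vessels, and they take up debris and myelin. TREM2 is a surface receptor for lipids and apolipoproteins that signals through the adaptor TYROBP, and APOE and LPL carry and split the lipids of ingested material. The other genes encode a secreted integrin ligand (*Spp1*), surface receptors (*Clec7a* and *Itgax*), tetraspanins of the surface and of endosomes (*Cd9* and *Cd63*), and proteins of lysosomes and late endosomes (*Gpnmb* and *Cst7*). A closely related set marks microglia around plaques and in demyelinated tissue of adults.

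The bases before the first transcribed base are shown for 5 genes on which the results turn. *Clec7a*, *Cd9* and *Trem2* were lower and *Itgax* was higher in *Ctnnb1* cKO microglia, and *Spp1* varied between the sets of cells. The sequences were matched by symbol to RefSeq for assembly GRCm38.p6 and read 5′ to 3′ on the strand of the gene, 250 bases each, while the submitters' processing notes name GRCm39 for the counts. Windows were found for 9 of the 10 genes, all but *Lpl*. Capitals mark GAGGAA, the core bound by PU.1, which sets myeloid identity, or TGACTCA, the site of AP-1 factors. Both strands were searched, so TTCCTC and TGAGTCA are also in capitals, and no marked sites overlap. The window of *Clec7a* lies at chr6:129472780-129473029 (minus strand), *Cd9* at chr6:125494761-125495010 (minus strand), *Trem2* at chr17:48346151-48346400 (plus strand), *Spp1* at chr5:104434861-104435110 (plus strand) and *Itgax* at chr7:128129300-128129549 (plus strand).
*Clec7a*: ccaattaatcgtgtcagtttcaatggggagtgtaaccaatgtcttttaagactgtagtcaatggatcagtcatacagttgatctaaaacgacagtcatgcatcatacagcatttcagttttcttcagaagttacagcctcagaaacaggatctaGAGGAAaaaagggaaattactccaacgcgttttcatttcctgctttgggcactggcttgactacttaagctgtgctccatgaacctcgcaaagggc
*Cd9*: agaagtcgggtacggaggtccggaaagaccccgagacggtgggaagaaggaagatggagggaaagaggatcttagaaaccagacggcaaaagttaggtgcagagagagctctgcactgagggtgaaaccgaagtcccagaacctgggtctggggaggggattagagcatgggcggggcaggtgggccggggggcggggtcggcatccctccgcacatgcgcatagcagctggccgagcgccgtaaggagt
*Trem2*: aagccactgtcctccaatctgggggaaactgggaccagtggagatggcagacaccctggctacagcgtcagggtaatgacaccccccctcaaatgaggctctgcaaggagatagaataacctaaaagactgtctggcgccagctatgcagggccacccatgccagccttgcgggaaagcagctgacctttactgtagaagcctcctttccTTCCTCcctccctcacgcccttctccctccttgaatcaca
*Spp1*: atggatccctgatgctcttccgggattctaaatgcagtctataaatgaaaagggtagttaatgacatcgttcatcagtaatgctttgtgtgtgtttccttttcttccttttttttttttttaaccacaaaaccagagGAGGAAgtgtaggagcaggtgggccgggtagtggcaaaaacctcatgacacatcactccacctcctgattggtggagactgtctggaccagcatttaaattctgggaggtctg
*Itgax*: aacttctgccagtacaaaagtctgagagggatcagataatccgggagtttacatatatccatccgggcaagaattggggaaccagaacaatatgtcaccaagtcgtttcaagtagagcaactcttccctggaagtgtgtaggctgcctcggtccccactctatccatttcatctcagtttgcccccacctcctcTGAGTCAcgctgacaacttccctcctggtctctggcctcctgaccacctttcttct
GAGGAA was present in the windows of 5 of the 9 genes (*Spp1*, *Apoe*, *Trem2*, *Clec7a* and *Cd63*), where 23.3% of all 32851 windows of this length held it. TGACTCA was present in 1 of 9, that of *Itgax*, where 4.46% of all windows held it. CACGTG, the E-box of factors that drive lysosomal genes, was present in 0 of 9, where 6.02% of all windows held it. A match describes letters in a short window and not a bound site.

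The targeted genes were read first, in CPM (UMIs scaled to 1000000 per set of cells). In endothelial cells *Tspan12* stood at 95.9 CPM (91.2 to 101) in the WT library, 84.2 CPM (77.2 to 91.6) in the *Tspan12* KO library and 40.2 CPM (36.8 to 43.8) in the *Ctnnb1* cKO library, so it was lowest in a library that is not labelled as its knockout. *Ctnnb1* stood there at 523 CPM (512 to 535), 616 CPM (597 to 636) and 443 CPM (431 to 454), lowest in the library labelled *Ctnnb1* cKO. In microglia *Tspan12* had 2, 3 and 7 UMIs, and *Ctnnb1* stood at 177 CPM (161 to 193), 187 CPM (171 to 205) and 121 CPM (114 to 129.5). These libraries count the 3′ ends of transcripts, which a knockout allele can keep, and the sources used here do not give the deleted part, so these levels do not check the labels.

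The libraries differed in depth and in the make-up of their microglia. Median UMIs per barcode ran from 2790 in the *Ctnnb1* cKO library to 4974 in the WT library, median mitochondrial shares from 0.374% to 2.31%, and pairs of libraries shared between 21 and 37 barcodes. The labels call the cells vascular, yet microglia were 3.19%, 2.87% and 25.2% of the kept cells of the WT, *Tspan12* KO and *Ctnnb1* cKO libraries and endothelial cells 5.99%, 2.28% and 32.1%. Cells were clustered without the 10 genes, and the microglia numbered 287, 366 and 2127, with all 10 fixed microglia markers detected in each library and median depths of 9654, 7442 and 3069 UMIs. One cluster led with chemokine and cytokine genes (chemokine-high) and one with mitotic genes (cycling), relative to the other microglia of the 3 libraries. Another led with neither (resting), and a shallow cluster, led over the pooled cells by haemoglobin and rod genes among others, stayed unnamed. In its WT cells erythrocyte genes summed to 120 CPM and rod genes to 359 CPM. These sums were 3857 and 1313 CPM in its *Tspan12* KO cells and 5689 and 1303 CPM in its *Ctnnb1* cKO cells. Microglia markers summed to 22436, 17526 and 10430.5 CPM in its WT, *Tspan12* KO and *Ctnnb1* cKO cells. Resting cells numbered 158, 255 and 46, chemokine-high cells 20, 20 and 1818, cycling cells 10, 18 and 209, and unnamed cells 99, 73 and 54.

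The name chemokine-high rests mostly on 1 library, since 1818 of its 1858 cells came from the *Ctnnb1* cKO library, and it may be that library rather than a state. The names hold over the pooled microglia and not within the WT library. Clustered on their own, 187 of 290 WT microglia led with the chemokine markers and would be named chemokine-high, and 0 of 2059 *Ctnnb1* cKO microglia would be. The chemokine *Ccl3* stood at 2975 CPM and the cytokine *Il1a* at 648 CPM in the resting WT cells, above the 2462 and 385 CPM of the chemokine-high *Ctnnb1* cKO cells. The summed level of the chemokine markers was 10748 CPM in these cells and 4948 CPM in the resting cells of the same library, but 9735 CPM in the resting WT cells. The 46 resting *Ctnnb1* cKO cells also had a higher median mitochondrial share (1.97%) than the chemokine-high cells of their library (0.368%). Macrophages, named from markers such as *Mrc1*, *Ms4a7* and *Pf4*, numbered 1, 21 and 298, so no macrophage value is read in the WT library. Of their 11 markers, *Ccr2* and *Chil3* were at 0 in the *Ctnnb1* cKO macrophages, and the microglia markers summed to 10053 CPM there, against 15451 CPM in the microglia. Rods, which should lack most of these genes, gave the level of free RNA at median depths of 3340, 1644.5 and 1517.5 UMIs.

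Of the 10 genes, 3 were at least 2-fold lower and 2 at least 2-fold higher in *Ctnnb1* cKO than in WT microglia, where 7.41% and 9.19% of the 10485 genes with at least 50 UMIs over both libraries were that far from WT. *Trem2*, *Clec7a* and *Cd9* were the lower genes, and *Gpnmb* and *Itgax* the higher ones. *Gpnmb* had 160 UMIs in *Ctnnb1* cKO and 6 in WT, so it reached 50 UMIs only through the library where it was higher. It is not among the 9 genes counted in the other comparisons of this paragraph. The median log2 ratio of the 10 genes was −0.33, against 0.06 for all genes. In the resting cells alone, 3 of 9 genes were at least 2-fold lower (10.6% of all genes) and 1 of 9 at least 2-fold higher (6.33%). Of these, *Clec7a* had 1 UMI in *Ctnnb1* cKO and 290 in WT, so it reached 50 UMIs only through the library where it was higher. In *Tspan12* KO microglia 0 of 9 genes were 2-fold away from WT in either direction, where 1.89% of all genes were 2-fold higher and 1.63% lower, and their median was 0.01, against 0.09 for all genes. In resting *Tspan12* KO cells the count was also 0 of 9, where 1.92% of all genes were 2-fold higher and 1.79% lower. Both knockout libraries are compared with the same WT library.

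**Figure D1:**
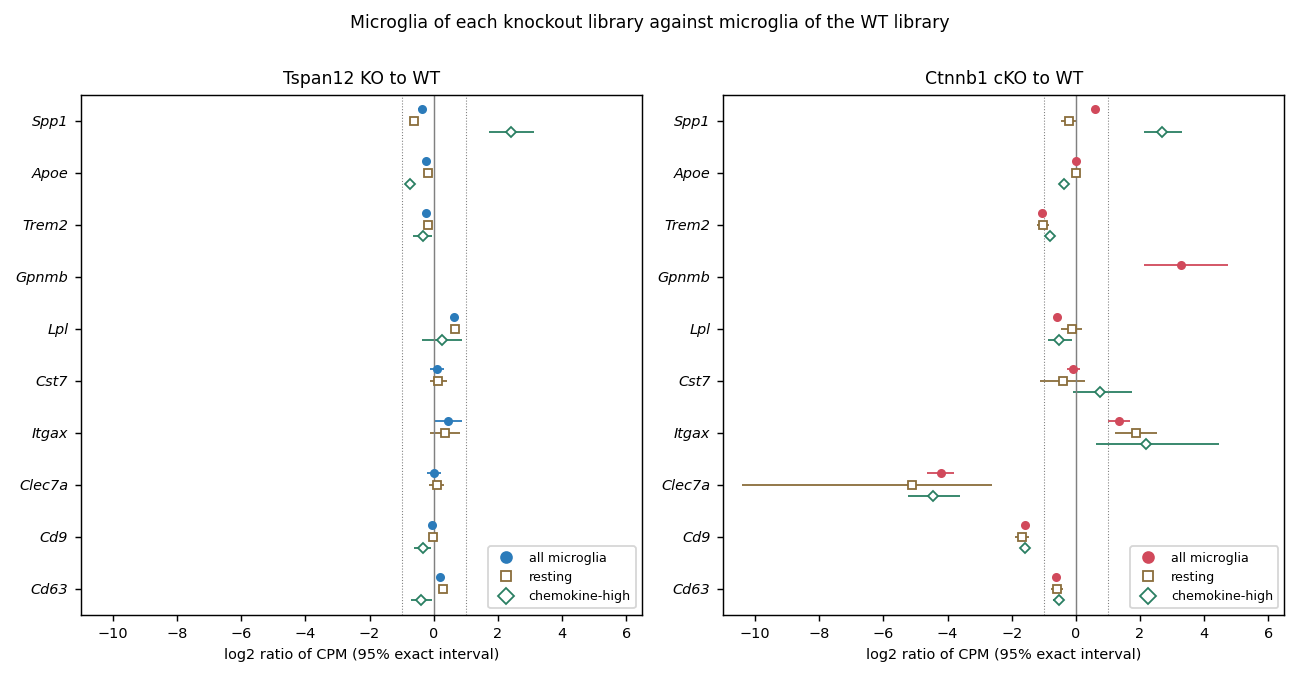
Log2 ratio of CPM of each gene in a knockout library to the WT library (x axis) in all microglia, in resting cells and in chemokine-high cells, with 95% exact counting intervals and dotted lines at 2-fold; genes with under 50 UMIs over both groups, or with 0 UMIs in one, are left out. *Clec7a*, *Cd9* and *Trem2* lie left of 0 in all 3 sets of *Ctnnb1* cKO cells, while *Spp1* lies on either side of 0 depending on the set of cells.

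Among the surface receptors, *Clec7a* (ENSMUSG00000079293), which encodes the beta-glucan receptor dectin-1, showed the largest difference of the 10 genes between *Ctnnb1* cKO and WT microglia. It stood at 141 CPM (127 to 156, from 380 UMIs) in WT cells, 143 CPM (129 to 158, from 378 UMIs) in *Tspan12* KO cells and 7.65 CPM (5.80 to 9.91, from 57 UMIs) in *Ctnnb1* cKO cells. The *Ctnnb1* cKO level was 18.4-fold below WT, a log2 ratio of −4.21 (−4.63 to −3.80), and the *Tspan12* KO level was within counting error of WT, with a ratio of 0.01 (−0.20 to 0.22). At an equal depth of 2000 UMIs, 20.4% of WT microglia, 20.9% of *Tspan12* KO microglia and 1.23% of *Ctnnb1* cKO microglia had a *Clec7a* UMI, and at most 0.165% of the rods of any library. Without thinning, 47.0%, 45.9% and 2.40% of the WT, *Tspan12* KO and *Ctnnb1* cKO microglia had one.

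*Clec7a* was lower in each state of the *Ctnnb1* cKO microglia. Resting cells had 1 UMI, or 3.97 CPM (0.101 to 22.1), against 138 CPM (122 to 155) in WT resting cells, a log2 ratio of −5.12 (−10.42 to −2.63). Chemokine-high cells had 5.87 CPM (4.09 to 8.16), against 128 CPM (80.9 to 192) in WT, a ratio of −4.44 (−5.24 to −3.62). Cycling cells had 16.0 CPM (9.45 to 25.2), against 153 CPM (98.8 to 225) in the 10 cycling WT cells. The unnamed cells had 3 UMIs, a ratio of −2.62 (−4.96 to −0.98). In each of these 4 sets the whole interval of the *Ctnnb1* cKO level lay below that of the WT level.

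The same library was low in *Clec7a* also in cells clustered apart from the microglia. Macrophages had 17.0 CPM (9.69 to 27.5) in *Ctnnb1* cKO and 102 CPM (55.8 to 171) in *Tspan12* KO. The cluster named neutrophils, which also carry dectin-1, had 17.5 CPM (4.77 to 44.8) in 104 *Ctnnb1* cKO cells and 299.5 CPM (226 to 389.9) in 23 WT cells. In both clusters the intervals did not overlap. The neutrophil cluster was mixed, with microglia markers at a summed 4863 CPM in WT and 3214 CPM in *Ctnnb1* cKO. Macrophage markers there summed to 3583 and 3122 CPM, so its *Clec7a* cannot be given to neutrophils alone.

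*Trem2* (ENSMUSG00000023992), the lipid-sensing receptor, was 2.08-fold lower in the *Ctnnb1* cKO library. Its level was 1973 CPM (1920 to 2026) in WT cells, 1680 CPM (1631 to 1730) in *Tspan12* KO cells and 950.4 CPM (928 to 973) in *Ctnnb1* cKO cells. The log2 ratio to WT was −0.23 (−0.29 to −0.17) for *Tspan12* KO and −1.05 (−1.10 to −1.0) for *Ctnnb1* cKO. The order was the same in each state: resting cells had 1947, 1728 and 966 CPM in WT, *Tspan12* KO and *Ctnnb1* cKO, chemokine-high cells 1754, 1381 and 1000 CPM, cycling cells 1746, 1266 and 693 CPM, and unnamed cells 2511, 1746 and 843 CPM. At 2000 UMIs, *Trem2* was seen in 94.6%, 95.8% and 79.6% of the microglia. The shares without thinning were 99.0%, 95.6% and 88.7%. Rods held 8.80, 5.02 and 38.9 CPM, so free *Trem2* RNA was highest in the library whose microglia had the lowest level.

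*Itgax* (ENSMUSG00000030789), the alpha chain of the CD11c integrin, was higher in *Ctnnb1* cKO microglia. Its level was 30.5 CPM (24.2 to 37.8) in WT cells, 41.9 CPM (34.4 to 50.4) in *Tspan12* KO cells and 77.3 CPM (71.1 to 83.9) in *Ctnnb1* cKO cells. The log2 ratio to WT was 0.46 (0.03 to 0.89) for *Tspan12* KO and 1.34 (1.01 to 1.70) for *Ctnnb1* cKO. In resting cells alone the *Ctnnb1* cKO ratio was 1.88 (1.21 to 2.52), from 30 UMIs. No single cell carried the level, since the highest cell held 5 UMIs, and at 2000 UMIs 4.58%, 7.72% and 13.9% of the microglia had a UMI, or 21.6%, 23.0% and 20.5% without thinning.

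Of the tetraspanins, *Cd9* (ENSMUSG00000030342), which sits beside integrins at the cell surface, was lower in *Ctnnb1* cKO microglia. WT cells had 2247 CPM (2191 to 2304), *Tspan12* KO cells 2152 CPM (2097 to 2209) and *Ctnnb1* cKO cells 749.7 CPM (730.1 to 769.6). The *Ctnnb1* cKO log2 ratio was −1.58 (−1.64 to −1.53) over all microglia, −1.68 (−1.91 to −1.46) in resting, −1.59 (−1.73 to −1.44) in chemokine-high and −2.52 (−2.96 to −2.10) in unnamed cells, and it lay below −1 in each. The *Tspan12* KO ratio was −0.06 (−0.11 to −0.01). *Cd9* is also made by other retinal cells, with 1382 CPM in WT astrocytes and 178 CPM in WT endothelial cells.

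*Cd63* (ENSMUSG00000025351), the tetraspanin of late endosomes, differed less. It stood at 1563 CPM (1517 to 1611) in WT cells, 1804 CPM (1753 to 1856) in *Tspan12* KO cells and 1015 CPM (992 to 1038) in *Ctnnb1* cKO cells, with log2 ratios to WT of 0.21 (0.15 to 0.27) and −0.62 (−0.68 to −0.57). In each library its level was highest in the unnamed cells, with 2300, 2720 and 1228 CPM in WT, *Tspan12* KO and *Ctnnb1* cKO. Against the resting cells that was a log2 ratio of 0.62 (0.49 to 0.75) in WT cells, 0.58 (0.43 to 0.73) in *Tspan12* KO cells and 0.29 (−0.02 to 0.60) in *Ctnnb1* cKO cells, the last within counting error. Rods held 183, 202 and 189.7 CPM, nearly alike in the 3 libraries.

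Among the genes of lipid handling, *Apoe* (ENSMUSG00000002985), the main lipid carrier of brain and retina, was level between *Ctnnb1* cKO and WT over all microglia. It stood at 18039 CPM (17879 to 18200) in WT cells, 15285 CPM (15137 to 15435) in *Tspan12* KO cells and 18009 CPM (17913 to 18105) in *Ctnnb1* cKO cells, with log2 ratios to WT of −0.24 (−0.26 to −0.22) and −0.0024 (−0.02 to 0.01). By set of cells the *Ctnnb1* cKO ratio was −0.0010 (−0.05 to 0.04) in resting, −0.38 (−0.42 to −0.33) in chemokine-high and −0.09 (−0.16 to −0.01) in unnamed cells. Within each library the cycling cells had the lowest *Apoe* of the microglia, with 11081, 10556 and 12800 CPM. Rods held 379, 317 and 1222 CPM, and 42.6%, 39.3% and 85.7% of them had an *Apoe* UMI at 2000 UMIs, so the presence of *Apoe* in a cell says little on its own.

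*Lpl* (ENSMUSG00000015568), the lipase that splits the triglycerides of lipoproteins, was the gene furthest above WT in *Tspan12* KO microglia among the 9 with at least 50 UMIs. Levels were 360.0 CPM (338 to 383) in WT cells, 562 CPM (534 to 591) in *Tspan12* KO cells and 241 CPM (230.1 to 253) in *Ctnnb1* cKO cells. In *Tspan12* KO the log2 ratio was 0.64 (0.52 to 0.76) over all microglia, 0.66 (0.53 to 0.79) in resting and 0.71 (0.20 to 1.23) in unnamed cells. In the chemokine-high cells of that library it was 0.27 (−0.36 to 0.88), within counting error. In *Ctnnb1* cKO it was −0.58 (−0.69 to −0.46) over all microglia and −0.51 (−0.88 to −0.12) in chemokine-high cells. It was within counting error in the 46 resting cells (−0.12, −0.46 to 0.20) and in the unnamed cells (0.02, −0.66 to 0.67).

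*Spp1* (ENSMUSG00000029304), which encodes osteopontin, a secreted ligand of integrins and CD44, varied between the sets of cells, which differed in library as well as state. Over all microglia it stood at 618 CPM (589 to 649) in WT cells, 479 CPM (453 to 506) in *Tspan12* KO cells and 930.1 CPM (908 to 952) in *Ctnnb1* cKO cells, with log2 ratios to WT of −0.37 (−0.48 to −0.26) and 0.59 (0.51 to 0.67). In resting cells the *Ctnnb1* cKO level was 560.4 CPM (472 to 661) and the WT level 648 CPM (614 to 683), a ratio of −0.21 (−0.47 to 0.04). The higher *Spp1* of the *Ctnnb1* cKO library was thus not found in its resting cells. Its cycling cells had 1224 CPM (1160 to 1290), against 781 CPM (652 to 929) in 10 WT and 702 CPM (595 to 823) in 18 *Tspan12* KO cycling cells. A single cell held 44 of the 128 UMIs of the cycling WT cells and 56 of the 152 of the cycling *Tspan12* KO cells.

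The chemokine-high cells gave the widest range of *Spp1*. They had 139 CPM (89.8 to 205) in WT, from 25 UMIs in 8 of 20 cells. They had 729 CPM (564 to 928) in *Tspan12* KO, from 66 UMIs in 4 of 20 cells, and 892 CPM (868 to 916) in *Ctnnb1* cKO, from 778 of 1818 cells. A single *Tspan12* KO cell held 59 of the 66 UMIs. Without the highest cell of each library the levels were 86.6 CPM for WT, 85.4 CPM for *Tspan12* KO and 876 CPM in *Ctnnb1* cKO, so 1 cell set the *Tspan12* KO value and its counting interval does not cover the spread between cells.

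Of the lysosomal and endosomal genes, *Gpnmb* (ENSMUSG00000029816), a transmembrane glycoprotein of late endosomes, was rare in every library. WT microglia had 2.23 CPM (0.818 to 4.85, from 6 UMIs), *Tspan12* KO 6.03 CPM (3.45 to 9.80, from 16 UMIs) and *Ctnnb1* cKO 21.5 CPM (18.3 to 25.1, from 160 UMIs). In *Tspan12* KO 14 of the 16 UMIs were in 1 cell, and without it the level was 0.759 CPM. In *Ctnnb1* cKO the UMIs lay in 74 of 2127 cells, and the log2 ratio to WT was 3.27 (2.11 to 4.74). Chemokine-high *Ctnnb1* cKO cells had 134 UMIs and chemokine-high WT cells 0, so the level was at least 1.35-fold higher, counted against a floor of 3 UMIs.

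*Cst7* (ENSMUSG00000068129), which encodes cystatin F, an inhibitor of lysosomal cathepsins, was within counting error of WT in both knockout libraries. Its level was 113 CPM (101 to 127) in WT cells, 122 CPM (109 to 136) in *Tspan12* KO cells and 107 CPM (99.7 to 115) in *Ctnnb1* cKO cells, with log2 ratios to WT of 0.10 (−0.13 to 0.33) and −0.08 (−0.27 to 0.11). In the unnamed WT cells it reached 210.3 CPM (157 to 276), against 104 CPM (90.7 to 119) in the resting WT cells. The unnamed cells of the *Ctnnb1* cKO library had 75.0 CPM (32.4 to 148), from 8 UMIs.

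**Figure D2:**
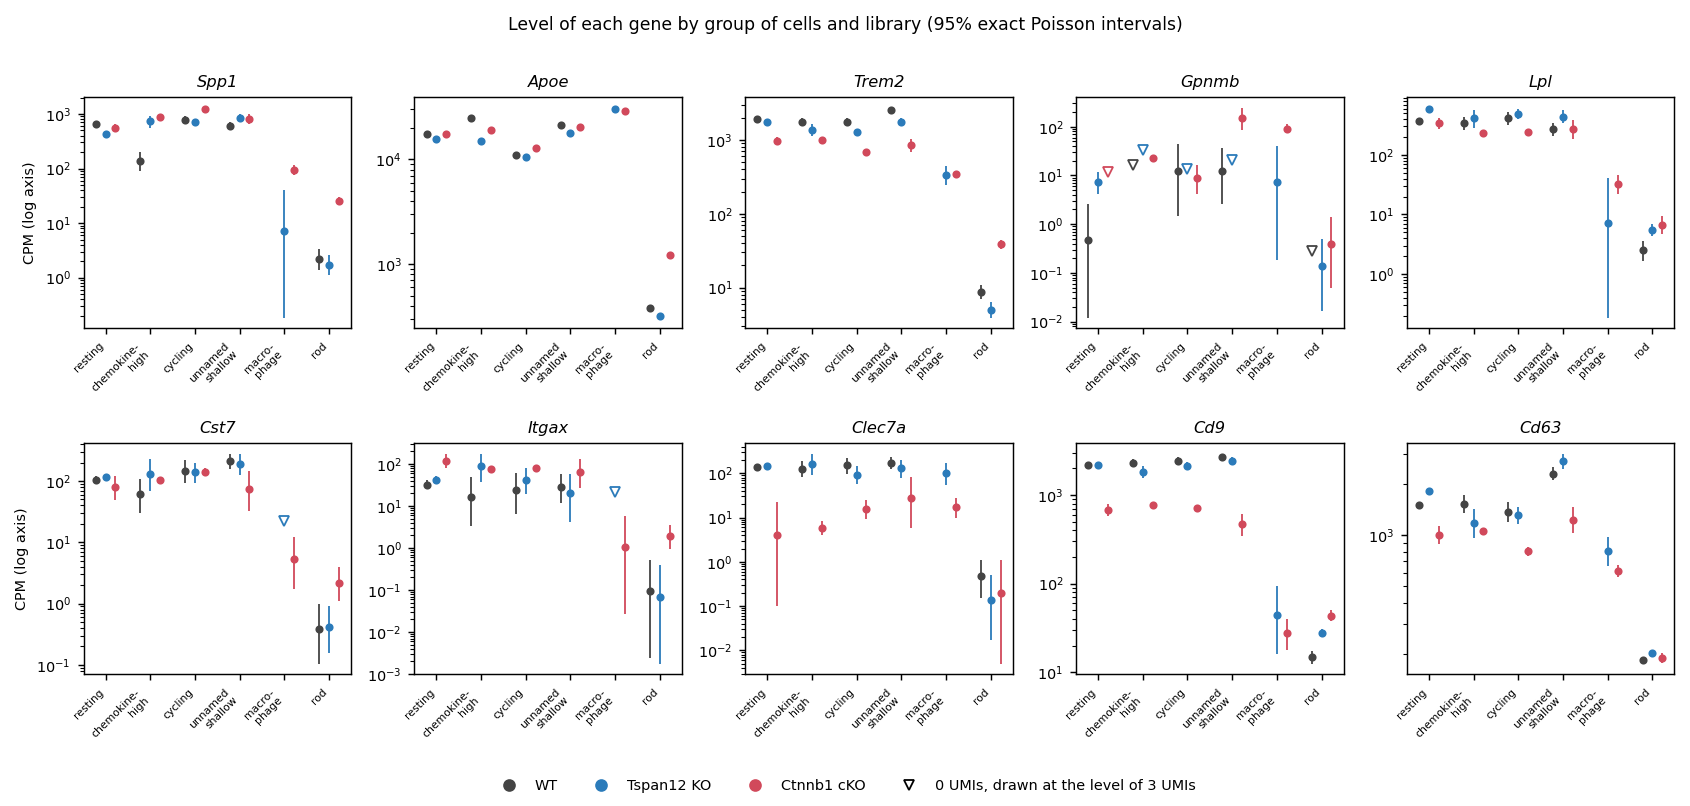
Level of each gene (y axis, CPM, log axis) in the 4 sets of microglia, in macrophages and in rods, by library, with 95% exact Poisson intervals; triangles stand for 0 UMIs, drawn at the level of 3 UMIs, and the single WT macrophage is left out. *Clec7a*, *Cd9* and *Trem2* of the *Ctnnb1* cKO library lie below both other libraries in each set of microglia. *Spp1*, *Trem2*, *Lpl*, *Cst7*, *Itgax*, *Cd9* and *Cd63* of that library lie lower in macrophages than in any set of microglia.

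Within the *Ctnnb1* cKO library, chemokine-high and resting cells differed little in these genes. *Spp1* was higher in chemokine-high cells (log2 ratio 0.67, 0.43 to 0.92), and *Itgax* (−0.66, −1.19 to −0.07) and *Lpl* (−0.51, −0.83 to −0.18) were lower. *Apoe* had a ratio of 0.11 (0.06 to 0.15), and *Trem2*, *Cst7*, *Cd9* and *Cd63* were within counting error. *Gpnmb* had 134 UMIs in chemokine-high and 0 in resting cells, at least 1.89-fold higher, so it reached 50 UMIs only through the cells where it was higher. As counted, with *Gpnmb* past 2-fold, 1 of 9 genes was at least 2-fold higher and 0 lower, where 11.7% of all genes were 2-fold higher and 6.36% lower. With 0 UMIs set to the floor of 3 for all genes, 0 of 9 were, where 9.75% of all genes were 2-fold higher and 6.36% lower. The median over the 9 genes was 0.11, against −0.02 for all genes, and TMM scaling would move every ratio by 0.19 here and by 0.13 between cycling and resting cells. In the WT library *Spp1* was lower in chemokine-high than in resting cells, with a ratio of −2.22 (−2.86 to −1.65), and whether the libraries differ in this was not tested.

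Cycling *Ctnnb1* cKO microglia held more *Spp1* and *Cst7* and less of the lipid genes and *Trem2* than the resting cells of that library. *Spp1* was 2.18-fold higher (log2 ratio 1.13, 0.88 to 1.39), the only gene of 8 past 2-fold, where 11.4% of all genes were 2-fold higher and 5.72% lower, and *Cst7* had a ratio of 0.82 (0.14 to 1.57). *Apoe* (−0.46, −0.51 to −0.41), *Trem2* (−0.48, −0.69 to −0.27), *Lpl* (−0.50, −0.86 to −0.13) and *Cd63* (−0.32, −0.52 to −0.11) were lower, and *Cd9* and *Itgax* were within counting error. The median over the 8 genes was −0.39, against 0.02 for all genes, and with no doublets removed it was 0.63, where the resting cells then held a cluster with endothelial markers. *Clec7a* and *Gpnmb* had too few UMIs for this comparison.

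Macrophages held far less of most of these genes than microglia of the same library. In the *Ctnnb1* cKO library 6 of 10 genes were at least 2-fold lower and 2 at least 2-fold higher, where 10.3% of all genes were 2-fold lower and 6.31% higher, and the median log2 ratio was −2.17, against −0.08 for all genes. Of the lower genes, *Lpl*, *Cst7*, *Itgax* and *Cd9* reached 50 UMIs over both groups only through the microglia, where they were higher. *Itgax* had 1 UMI in 298 macrophages (log2 ratio −6.19, −11.50 to −3.71). *Cd9* (−4.77, −5.38 to −4.21), *Cst7* (−4.34, −5.96 to −3.11), *Spp1* (−3.32, −3.64 to −3.02), *Lpl* (−2.88, −3.44 to −2.37), *Trem2* (−1.46, −1.63 to −1.30) and *Cd63* (−0.73, −0.85 to −0.61) were also lower. *Cd9* stood at 27.5 CPM (18.0 to 40.4) in the macrophages and 43.7 CPM (38.1 to 49.8) in rods, and *Itgax* at 1.06 CPM (0.0268 to 5.90) and 1.98 CPM (0.947 to 3.63), so neither exceeded free RNA in the macrophages.

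*Apoe*, *Gpnmb* and *Clec7a* were higher in the macrophages of the *Ctnnb1* cKO library. *Apoe* stood at 29054 CPM (28711 to 29399), a log2 ratio of 0.69 (0.67 to 0.71). *Gpnmb* stood at 91.1 CPM (72.9 to 113), a ratio of 2.08 (1.69 to 2.47), from 86 UMIs in 32 of 298 cells. *Clec7a* had a ratio of 1.15 (0.25 to 1.97), from 16 UMIs against the low level of that library's microglia.

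The 21 macrophages of the *Tspan12* KO library gave a like order from fewer counts. *Apoe* was higher (log2 ratio 0.98, 0.93 to 1.02), and *Trem2* (−2.32, −2.78 to −1.91), *Cd63* (−1.17, −1.45 to −0.90) and *Cd9* (−5.62, −7.07 to −4.50) were lower. *Spp1* and *Lpl* had 1 UMI each, with ratios of −6.04 (−11.34 to −3.56) and −6.27 (−11.57 to −3.79). *Cst7* and *Itgax* had 0 UMIs, so they were at least 5.56-fold and 1.91-fold lower. As counted, 7 of 9 genes were at least 2-fold lower and 0 of 9 higher, where 18.7% of all genes were 2-fold lower and 8.98% higher, and the median log2 ratio was −5.62. With 0 UMIs set to the floor of 3 for all genes, 6 of 9 were lower and 0 higher, where 16.5% of all genes were lower and 8.98% higher, and the median was −2.32. *Spp1*, *Trem2*, *Lpl*, *Cst7*, *Itgax* and *Cd9* reached 50 UMIs over both groups only through the microglia, where they were higher. So did *Clec7a*, which was within counting error of the microglia (−0.48, −1.37 to 0.28).

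**Figure D3:**
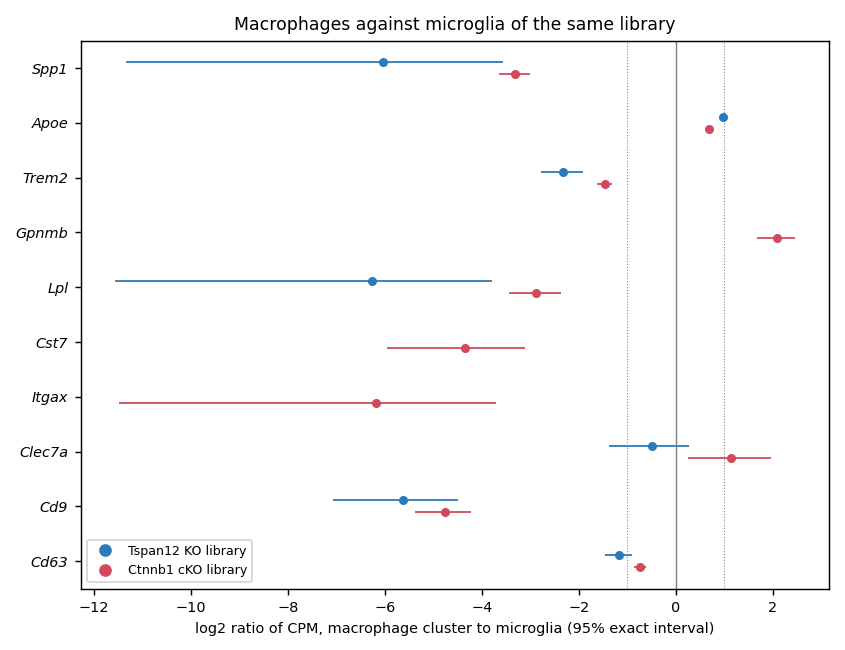
Log2 ratio of CPM in the macrophage cluster to the microglia of the same library (x axis), with 95% exact counting intervals and dotted lines at 2-fold; genes at 0 UMIs in the macrophages, or with under 50 UMIs over both groups, are left out. *Spp1*, *Trem2*, *Lpl* and *Cd9* lie left of the 2-fold line in both knockout libraries, and *Apoe* lies right of 0 in both.

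Nearly every microglial cell held UMIs of at least 3 of these genes, mostly the abundant ones. At 2000 UMIs, 99.2% of WT (97.0 to 99.9%, 238 of 240 cells), 98.7% of *Tspan12* KO (96.7 to 99.6%, 307 of 311 cells) and 94.1% of *Ctnnb1* cKO microglia (92.9 to 95.1%, 1676 of 1782 cells) had a UMI of at least 3 of the 10 genes. Without thinning these shares were 99.7%, 97.3% and 95.7%. The median was 5, 5 and 4 genes per cell, and 47, 55 and 345 shallower cells were left out. Of the 240 thinned WT cells, 88 had *Lpl*, 57 *Spp1*, 49 *Clec7a*, 44 *Cst7* and 11 *Itgax*, and 0 UMIs of *Gpnmb* were left. *Apoe*, *Cd9*, *Trem2* and *Cd63* had 9154, 1089, 977 and 756 UMIs in these cells, so the shares rest mostly on these abundant genes. Macrophages reached 3 genes in 55.6% of *Tspan12* KO (30.8 to 78.5%, 10 of 18 cells) and 45.8% of *Ctnnb1* cKO cells (39.5 to 52.2%, 115 of 251 cells). Rods, whose UMIs of these genes were mostly of *Apoe* and *Cd63*, reached it in 0.412%, 1.07% and 8.01% of WT, *Tspan12* KO and *Ctnnb1* cKO cells. Without thinning the shares were 76.2% and 60.7% of those macrophages and 9.0%, 6.81% and 12.9% of the rods.

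The genes were not spread alike over the microglia. In WT at 2000 UMIs, the tenth of cells with the most *Spp1* held 75.1% of its UMIs, and the same share was 47.6% for *Lpl*, 27.5% for *Apoe*, 25.1% for *Cd9*, 24.7% for *Cd63* and 22.7% for *Trem2*. For *Spp1* it was 74.6% in *Tspan12* KO and 63.6% in *Ctnnb1* cKO, where 40.3% of thinned cells had a UMI against 23.8% in WT and 24.4% in *Tspan12* KO. Without thinning those shares were 45.1%, 33.8% and 36.3%. Before thinning, a single WT cell held 200 of the 1664 *Spp1* UMIs of that library's microglia. Rare genes fall into few cells by their counts alone, so nothing is read from this share for *Gpnmb*, *Itgax*, *Cst7* and *Clec7a*. Over 61 pairs of genes within a library, the correlation of log counts across thinned cells ran from −0.04 to 0.20, values that sparse counts hold down and from which nothing is read.

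**Figure D4:**
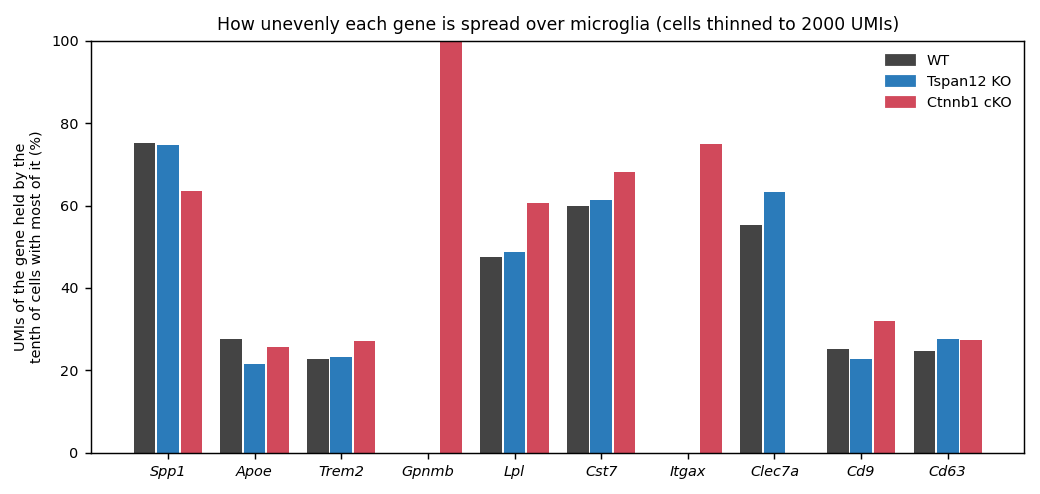
Share of each gene's UMIs (y axis, %) held by the tenth of microglia with the most of it, after thinning to 2000 UMIs, by library; bars are left out where a library had under 50 thinned UMIs of the gene. *Spp1* lies between 63.6% and 75.1%, and *Apoe*, *Trem2*, *Cd9* and *Cd63* between 21.6% and 32.1%.

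Finer clusters were made within each library, also without the 10 genes, and in *Ctnnb1* cKO the clusters with the highest *Spp1* were not those with the highest *Gpnmb*. In WT the 60 cells of one cluster had 982 CPM of *Spp1*, a log2 ratio to the other WT microglia of 1.07 (0.93 to 1.21), and the 110 cells of the largest cluster had 421 CPM (−0.99, −1.14 to −0.85). In *Tspan12* KO the 104 cells of the cluster with the most chemokine transcripts had 201 CPM (−1.63, −1.86 to −1.40). In *Ctnnb1* cKO the highest were 148 cells led by the interferon-response genes *Rsad2*, *Ifit3* and *Mx1*, with 1619 CPM (0.89, 0.79 to 0.99), and 363 cells led by *Cxcl14*, *Lgals3* and *Fabp5*, with 1514 CPM (0.84, 0.76 to 0.93) and more *Cst7* (0.77, 0.51 to 1.02). The 414 cells led by *Ddit4* and *Fkbp5*, genes that glucocorticoids induce, had the least *Spp1*, with 378 CPM (−1.45, −1.59 to −1.31).

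*Gpnmb* of the *Ctnnb1* cKO library was highest in 2 small clusters, whose *Spp1* stood at 872 CPM in each, within counting error of the other microglia of the library. One, of 63 cells led by haemoglobin genes, *Hmox1* and *Mt3*, had 169 CPM (3.44, 2.92 to 3.94) together with more *Lpl* (1.17, 0.92 to 1.42), and held erythrocyte genes at a summed 7766 CPM. The other, of 76 cells led by *Ms4a7*, *Ms4a4a* and *Mrc1*, had 162 CPM (3.17, 2.54 to 3.76) and more *Apoe* (1.51, 1.47 to 1.54), with less *Cd9* (−1.77, −2.26 to −1.32), *Lpl* (−2.88, −4.32 to −1.75), *Cst7* (−2.29, −4.17 to −0.92) and *Itgax* (−3.82, −9.13 to −1.34). It held macrophage markers at a summed 1973 CPM, against 148 CPM over all microglia of the library. Both clusters together held 77 of the 160 *Gpnmb* UMIs. At 2000 UMIs, 20 of the 46 *Ctnnb1* cKO microglia with a *Gpnmb* UMI also had one of *Spp1*. Without the 139 cells of both clusters the log2 ratio to WT was 2.41 (1.23 to 3.90) for *Gpnmb* and 1.40 for *Itgax*. For *Trem2* it was then −1.04, for *Cd9* −1.54, for *Clec7a* −4.16 and for *Apoe* −0.06 (−0.07 to −0.04).

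**Figure D5:**
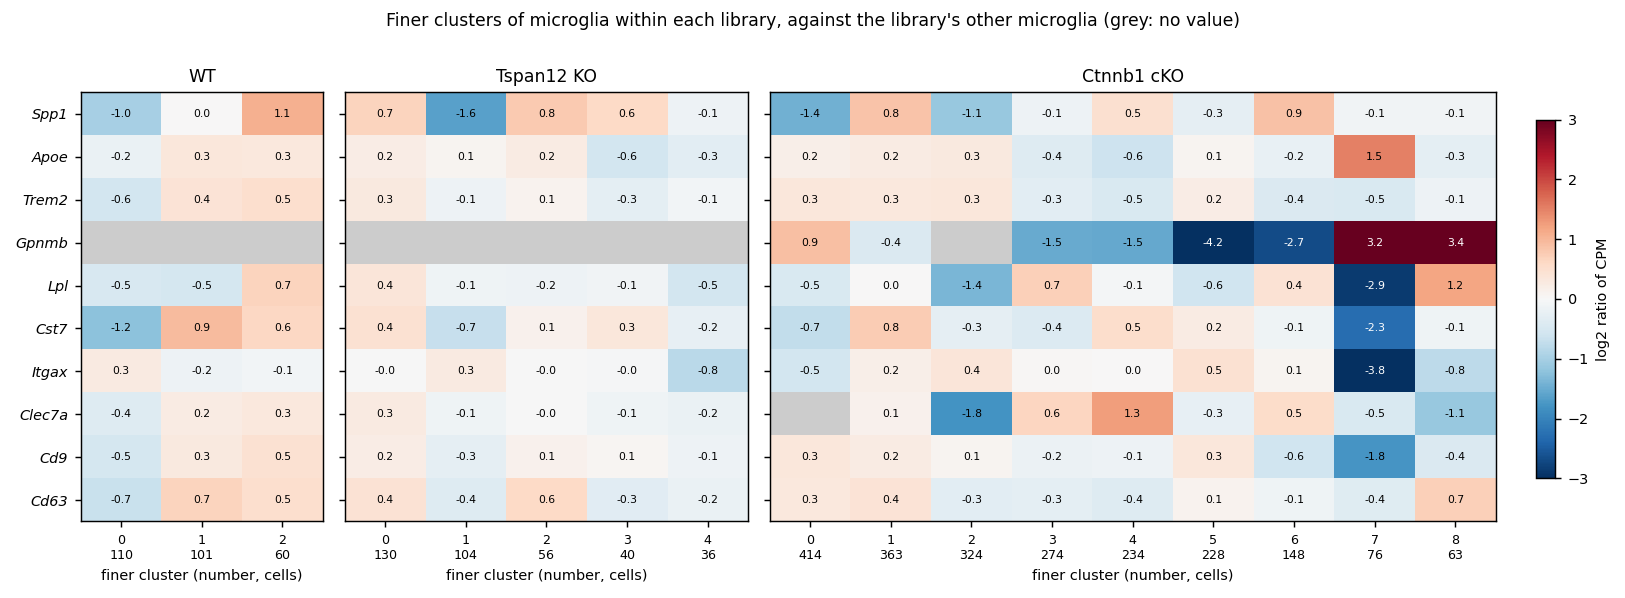
Log2 ratio of CPM of each gene in a finer cluster to the other microglia of the same library (colour and number), by cluster (number above, cells below); grey marks clusters with 0 UMIs of the gene or genes with too few UMIs. *Spp1* is highest in WT cluster 2 and *Ctnnb1* cKO clusters 1 and 6, and *Gpnmb* in *Ctnnb1* cKO clusters 7 and 8.

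Other genes of the same pathways were read from lists that hold none of the 10 genes. Of 12 genes of Trem2 signalling and lipid handling with enough UMIs, 2 were at least 2-fold higher and 0 lower in *Ctnnb1* cKO microglia. Of all genes 9.19% were 2-fold higher and 7.41% lower. In this list 7 intervals lay above 0 and 3 below, where 28.4% of all genes had an interval above 0 and 25.1% below, and the median log2 ratio was 0.43. The furthest from WT were *Apoc1*, an apolipoprotein (1.82, 1.68 to 1.97), *Lrp1*, a lipoprotein receptor (1.07, 0.96 to 1.18), and *Soat1*, which esterifies cholesterol (0.95, 0.75 to 1.15). In *Tspan12* KO 0 of 12 were 2-fold away, where 1.89% of all genes were 2-fold higher and 1.63% lower. There 8 intervals lay above 0 and 1 below, where 19.8% of all genes lay above and 12.4% below, and the median was 0.29. *Fabp5*, a fatty acid carrier (0.84, 0.74 to 0.95), *Syk*, the kinase below TYROBP (0.58, 0.33 to 0.84), and *Abcg1*, a cholesterol exporter (0.49, 0.30 to 0.69), were the furthest. Genes with many UMIs have narrower intervals, which more readily leave out 0.

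The lysosome and phagocytosis list was mixed, with 7 of 13 intervals above 0 and 5 below in *Ctnnb1* cKO (28.4% and 25.1% of all genes) and 6 and 5 in *Tspan12* KO (19.8% and 12.4%), and medians of 0.06 and 0.01. *Lamp2* of the lysosomal membrane was lower in *Ctnnb1* cKO (−1.17, −1.27 to −1.06) and *Cd68* lower in *Tspan12* KO (−0.39, −0.50 to −0.29). *Lgals3*, a galectin, was higher in both *Ctnnb1* cKO (0.86, 0.62 to 1.10) and *Tspan12* KO (0.74, 0.46 to 1.03), and so was *Mertk*, a receptor for dying cells (0.83, 0.74 to 0.92 and 0.38, 0.26 to 0.49). In the list of growth factors and adhesion receptors 6 of 10 intervals lay above 0 and 2 below in *Ctnnb1* cKO (28.4% and 25.1% of all genes), and 4 and 1 in *Tspan12* KO (19.8% and 12.4%), with medians of 0.42 and 0.20. *Cd44*, a receptor for osteopontin, was lower in both (−0.96, −1.18 to −0.73 in *Ctnnb1* cKO and −1.22, −1.55 to −0.91 in *Tspan12* KO), and *Lgals1*, another galectin, higher in both (0.67, 0.45 to 0.90 and 1.07, 0.83 to 1.32). *Csf1*, a growth factor of microglia, was higher in *Ctnnb1* cKO (0.68, 0.55 to 0.81) and the integrin *Itgb5* in *Tspan12* KO (0.75, 0.64 to 0.85).

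Most homeostatic microglia genes had lower levels in the *Ctnnb1* cKO library than in WT. Of 12 genes 4 were at least 2-fold lower and 1 higher, where 7.41% of all genes were 2-fold lower and 9.19% higher. Of their intervals 9 lay below 0 and 2 above (25.1% and 28.4% of all genes), and the median was −0.73, against 0.06 for all genes. *Gpr34* (−2.67, −2.80 to −2.55), the fructose transporter *Slc2a5* (−2.47, −3.0 to −1.95) and the purine receptor *P2ry12* (−1.56, −1.65 to −1.47) were the furthest from WT. In *Tspan12* KO 0 of 12 were 2-fold away, where 1.63% of all genes were 2-fold lower and 1.89% higher. There 6 intervals lay below 0 and 4 above (12.4% and 19.8% of all genes), and *Sall1* (0.59, 0.40 to 0.77), *Tmem119* (−0.48, −0.76 to −0.20) and *Cx3cr1* (0.46, 0.40 to 0.52) were the furthest.

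Genes that microglia are known to switch on during tissue dissociation were mostly lower in both knockout libraries. Of 11 genes with enough UMIs, 11 intervals lay below 0 in *Ctnnb1* cKO (25.1% of all genes). In *Tspan12* KO 10 lay below 0 (12.4% of all genes) and 1 above, that of *Dusp1* (0.32, 0.24 to 0.41), a phosphatase named after its value was seen. The medians were −0.73 for *Ctnnb1* cKO and −0.53 for *Tspan12* KO. The heat-shock gene *Hspa1a* had ratios of −1.86 and −2.05 in *Ctnnb1* cKO and *Tspan12* KO and the immediate-early gene *Ier5* ratios of −2.08 and −0.74, with *Ier2* at −0.92 in *Ctnnb1* cKO and *Jun* at −0.58 in *Tspan12* KO. Within each library the unnamed cells were far lower in these genes than the resting cells. All with enough UMIs were at least 2-fold lower, 11 of 11 genes for WT and 10 of 10 for each knockout library. Median log2 ratios were −4.15 (WT), −3.73 (*Tspan12* KO) and −2.82 (*Ctnnb1* cKO), against −0.56, −0.44 and −0.30 for all genes. The part of dissociation, depth and mitochondrial share in differences of the 10 genes, between libraries or between unnamed and resting cells, was not tested.

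The genes with the likest pattern to the mean of the 10 genes, over the 12 sets of state and library with at least 20 cells, were *Capg* (Pearson r of 0.975), *Ctsz* (0.968), *Commd9* (0.961), *Ctsd* (0.959) and *Timp2* (0.954). The sets share libraries, and the 2 sets of macrophages were the lowest in the mean of the 10 genes.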

How the data were processed

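Raw UMI counts per gene and barcode were deposited for 3 libraries, 1 per genotype. The authors made these counts with Cell Ranger from reads of a 10x 3′ kit. The matrix headers name version 8.0.1, the methods another version, the processing notes GRCm39 and the methods an older build, so no coordinates were read for the counts. Library totals were 92684519 (WT), 137114957 (*Tspan12* KO) and 37008362 (*Ctnnb1* cKO) UMIs. Barcodes under 250 genes or 500 UMIs, or above 15% mitochondrial UMIs, were dropped. The highest Scrublet scores were removed at 0.8% per 1000 cells (760, 1656 and 665 barcodes), since its own threshold marked 0, 0 and 323. Cells were clustered in scanpy 1.11.5 (2000 variable genes without the 10 genes, 30 components, 20 neighbours, Leiden resolution 1), and clusters were named from fixed markers.

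UMIs were summed per cell type, state and library and given as CPM with exact Poisson intervals. Log2 ratios carry exact conditional binomial intervals and need at least 50 UMIs over both groups where genes are counted. Shares carry Clopper-Pearson intervals after thinning cells to 2000 UMIs. Intervals and floors (3 UMIs) cover counting error only. Beside the 10 genes, those named were the 5 with the likest pattern, the targeted genes, and up to 3 genes per fixed list and knockout library with the largest ratio whose interval leaves out 0. The members and lists were chosen with earlier results of these data known. Alternatives were TMM scaling (edgeR 4.0.16), no count minimum, a pseudocount of 5 CPM, no doublet removal, resolution 0.5, the 10 genes kept in clustering, separate clustering, a marker gate, means over cells, thinning, and subtraction of rod levels. The interval code was tested on simulated data.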

Additional observations from a re-analysis of the deposited data

Results flagged for a closer look

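All values here are log2 ratios from 1 library each, picked because the sets of cells lay on opposite sides of 0 with intervals leaving out 0. The differences between the ratios were not tested. *Spp1* in *Tspan12* KO against WT was 2.39 in chemokine-high cells, 0.46 in unnamed cells and −0.62 in resting cells. The first of these rests on 1 cell, which held 59 of the 66 UMIs of the *Tspan12* KO chemokine-high cells. *Spp1* in chemokine-high against resting cells was 0.79 in *Tspan12* KO, which includes the same cell, 0.67 in *Ctnnb1* cKO and −2.22 in WT. *Cd63*, the endosomal tetraspanin, stood on opposite sides of 0 in *Tspan12* KO against WT, at 0.28 in resting cells, 0.24 in unnamed cells and −0.38 in chemokine-high cells. *Cd9* in unnamed against resting cells was 0.30 for WT, 0.18 for *Tspan12* KO and −0.54 for *Ctnnb1* cKO.

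Outside microglia and macrophages, *Spp1* stood at 22.1 CPM in endothelial cells of the *Ctnnb1* cKO library, 10.2-fold above the 2.18 CPM of WT endothelial cells. Rods of the same libraries, which should lack *Spp1*, held 25.3 and 2.20 CPM, so the endothelial level was not above that of free RNA in either library.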

How the results depend on the processing

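Of the medians and shares recomputed under alternatives, 58 stayed within the counting error of the value reported, 16 moved and 1 changed sign, and of the values for single genes 206 stayed, 57 moved and 4 changed sign. A change of sign was counted only where the interval of the value reported left out 0. Values within counting error of 0 also crossed it and are counted as stayed or moved. The cause of a change was not tested unless named. In *Ctnnb1* cKO against WT the log2 ratio ranged from −5.12 to −3.53 for *Clec7a*, −1.80 to −1.54 for *Cd9*, −1.27 to −1.01 for *Trem2*, 1.01 to 1.88 for *Itgax* and 1.13 to 4.90 for *Gpnmb*. *Spp1* went to −0.21 in resting cells alone, a setting chosen after seeing the data. In *Tspan12* KO, *Cd9* went to 0.0070 with a marker gate and 0.011 with thinning, and *Gpnmb* to −1.55 as a mean over cells, which lowers the weight of the cell with 14 UMIs. Medians over the genes as a mean over cells were −0.20 in *Tspan12* KO and −0.52 in *Ctnnb1* cKO, and −0.21 in *Ctnnb1* cKO with cells of at least 1% mitochondrial UMIs, also chosen after seeing the data. With no doublets removed, the medians were 0.88 for chemokine-high and 0.63 for cycling against resting cells and −1.57 for macrophages, with endothelial markers in a cluster then named resting. TMM scaling gave 0.30 and a marker gate −0.11 for chemokine-high against resting cells. For macrophages the gate gave −3.67, thinning −2.97 and subtraction of rod levels −1.27. The share of microglia with at least 3 of the genes was 89.8%, 91.3% and 74.7% in WT, *Tspan12* KO and *Ctnnb1* cKO at 1000 UMIs, 95.5% in WT and 91.4% in *Ctnnb1* cKO with the gate, and 91.6% in *Ctnnb1* cKO with no doublets removed.

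No paired analysis was possible because each group has 1 library, so leaving out a library gave no value. State comparisons had no value at resolution 0.5, where no resting cluster was named, and the chemokine-high comparison had none with separate clustering. *Gpnmb* in WT and *Tspan12* KO microglia rests on 16 UMIs or fewer, which limits its precision.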
